A study of Rattus norvegicus with 43 samples.

Results

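The comparison described here sets 7 rats fed the diet labelled LAMS against 5 rats fed the diet labelled control. Membership was decided by the diet label of each sample, and the 12 arrays were drawn from 43 arrays in 6 diet groups. The rats were Sprague Dawley animals of 11 weeks, and each array carried total RNA from the distal colon of 1 rat, labelled with biotin and hybridised to an Affymetrix array. The other 31 arrays came from rats on the diets labelled HAM (n = 8), HAMSB (n = 9), LAW (n = 6) and HAW (n = 8). The labels name each diet by its code alone. From what is known of the study, LAMS was a Western-type diet whose starch was low-amylose maize starch, HAM and HAMSB held high-amylose maize starch without and with butyrylation, and LAW and HAW held low- and high-amylose wheat. On that reading the control diet differed from LAMS in its whole composition and not in 1 ingredient. The labels give no genotype, drug or carcinogen for either group. The LAMS rats against the control rats address what a Western-type diet with a readily digested starch did to gene expression in the colon wall.

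The distal colon is a layered tube, and RNA from a piece of it mixes the RNA of all layers. An epithelium of absorptive colonocytes, mucus-filled goblet cells, hormone-releasing enteroendocrine cells and chemosensory tuft cells faces the lumen. Beneath it lie a connective tissue with vessels, fibroblasts and immune cells, patches of lymphoid follicles, and 2 layers of smooth muscle. The enteric nervous system lies between and beside the muscle layers as networks of neurons and glia that descend from the neural crest. Its founder cells depend on the receptor tyrosine kinase Ret, which binds growth factors of the Gdnf family through co-receptors named Gfra. In RNA from a tissue piece, fewer cells of a type and less RNA per cell of that type cannot be told apart.

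The deposited values were log2 expression values per probe set, between 1.31 and 14.05, and a difference of 1 on this scale is a factor of 2. The interquartile range of all values on an array averaged 3.21 ± 0.09 in LAMS and 3.30 ± 0.05 in control (SD, n = 7 and 5). The difference of -0.09 had an exact two-sided permutation p of 0.0505, and over the tested genes alone it was -0.02 (p = 0.535). B cell genes varied between pieces, and whether the pieces held more lymphoid follicles was not tested. The mean level of 12 B cell genes lay at 5.50 to 5.57 on 4 LAMS arrays and at 6.99 to 8.56 on LAMS replicates 2, 3 and 4, against 5.59 to 5.97 on 4 control arrays and 7.87 on control replicate 5. The 4 arrays with the high level are called lymphoid-rich. The names of the array files came in 3 styles. Lower-case names covered 4 LAMS and 2 control arrays, names with the diet code first the other 3 LAMS arrays, and names with the animal number first the other 3 control arrays. Animal numbers up to 30 covered 2 LAMS and 2 control arrays. What the name styles and numbers stand for is not given in the labels, and their part in the results was not tested beyond the fits named below. Markers of the colon wall were present in both groups, with the smooth muscle list at a mean level of 9.44 to 9.89 in LAMS and 9.53 to 10.13 in control. Of 14 genes of liver, pancreas and small intestine, 5 exceeded the low-signal filter, at a mean level of 5.35 to 5.60 in LAMS and 5.20 to 5.43 in control.

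No gene of the 10828 tested passed an adjusted p of 0.05 in LAMS against control (0%), with limma across all 43 arrays and Benjamini-Hochberg adjustment over all genes. The smallest adjusted p was 0.0761, which 11 genes shared, and all 11 lay lower in LAMS. At an unadjusted p under 0.05, 853 genes lay lower in LAMS (7.88%) and 82 lay higher (0.757%). Unchanged genes would give about 271 in each direction. By sign alone, 6515 genes lay lower in LAMS (60.2%), and the median difference over all genes was -0.04. All 7 LAMS values lay below all 5 control values for 119 genes (1.1%) and above them for 12 (0.111%). The median 95% interval of a gene's difference reached 0.28 to either side, so most differences much smaller than that could not be resolved with these arrays. The lean to the lower side changed with the scaling. With each array centred on the median of its tested genes, the 853 and 82 became 380 lower and 325 higher. Then 53.9% of such genes lay lower in place of 91.2%, and the lowest adjusted p was 0.654 (limma). The median difference of all genes moved by 0.06 to 0.03. Such centring evens the signs in part by construction, so it is no independent test of the lean.

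**Figure D1:**
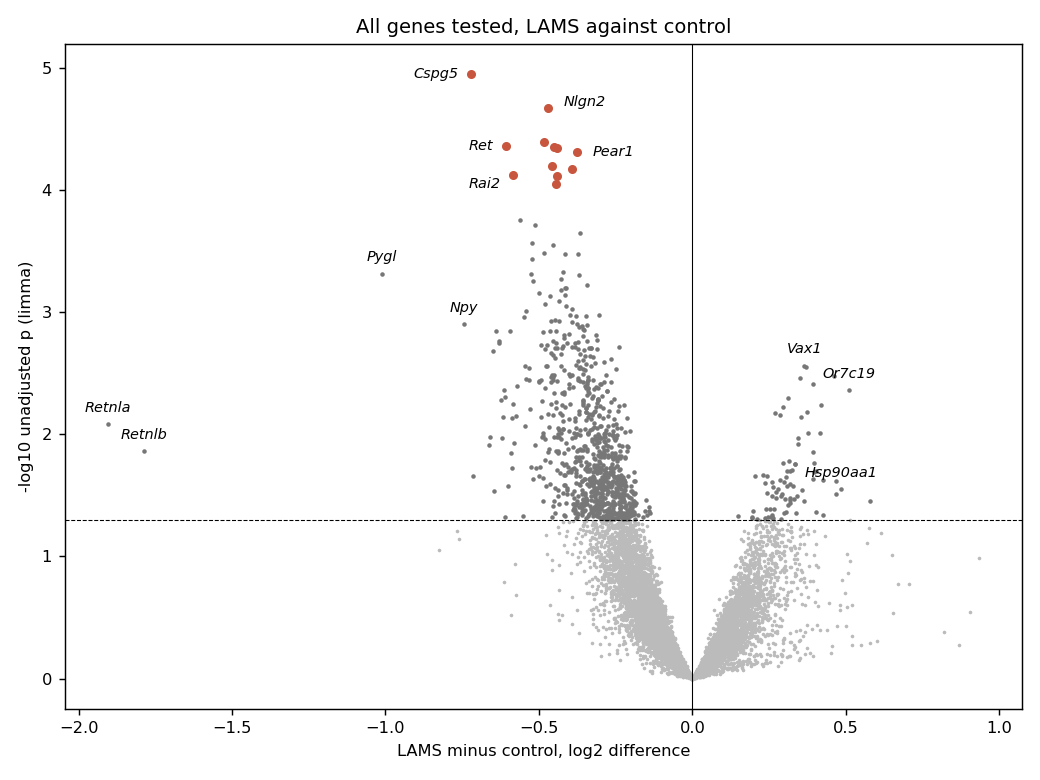
Every gene tested, with the LAMS minus control difference on the log2 scale across and the negative log10 of the unadjusted limma p upwards; the dashed line marks the 0.05 level, dark points lie above it and red points are the 12 genes with an adjusted p under 0.1. The upper points lie to the left of 0, with 853 genes on the lower and 82 on the higher side above the line.

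Some fits with a further term or with weights called genes. With the animal number range as the only further term none passed in either direction, and the lowest adjusted p was 0.0774. With the style of the array file's name as a term, 44 genes passed the adjusted threshold (0.406%), all 44 lower, with fitted differences between -0.87 and -0.32 and adjusted p between 0.0222 and 0.0496. All 44 had an unadjusted p under 0.05 without that term. For 18 of the 44 all LAMS values lay below all control values, beside 1.1% of all genes. The 44 were chosen by their p in these same arrays, so neither count is independent support. With arrays weighted by their fit to their diet group, 236 genes passed lower and 10 higher, and 19 of these genes belonged to the 44. No gene passed among the 4 LAMS and 2 control arrays that shared the lower-case style, where the lowest adjusted p was 0.405. In that style, the only 1 that both groups share, LAMS replicates 2, 3 and 4 were lymphoid-rich and no control array was. The median difference of the B cell list was 0.34 without a name style term, 0.84 with it and 1.45 within the lower-case style. The name style fit is thus not balanced for lymphoid content, and what this did to its genes was not tested.

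The genes with the firmest differences were led by Cspg5, which encodes a chondroitin sulphate proteoglycan of neural tissue, also known as neuroglycan C. In LAMS, Cspg5 had a lowest value of 4.20, a median of 4.55 and a highest of 5.07, and in control it had 5.32, 5.29, 5.52, 5.27 and 5.10. No LAMS array reached the lowest control array. The difference was -0.72 ± 0.14 (SE, adjusted p = 0.0761), or 0.607 of the control level. With name style as a term it was -0.84 (adjusted p = 0.0222), and the LAMS mean lay under the filter floor of 4.79. Its values in LAMS were thus near the weakest that the arrays were taken to measure.

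Ret is the signalling receptor for Gdnf-family ligands on enteric neurons and their precursors. Ret lay between 5.94 and 6.59 on the LAMS arrays (median 6.16), and the control arrays had 6.67, 6.73, 7.06, 6.68 and 6.91. The groups did not overlap. The difference was -0.61 ± 0.13 (SE, adjusted p = 0.0761). Nlgn2, neuroligin 2, is a postsynaptic adhesion protein of inhibitory synapses. Expression of Nlgn2 was 6.00 at its lowest, 6.20 at the median and 6.41 at its highest in LAMS, and 6.53, 6.74, 6.67, 6.72 and 6.86 in control. Here too every LAMS array lay under every control array, and the difference was -0.47 ± 0.10 (adjusted p = 0.0761, and 0.0382 with name style as a term). Rai2, retinoic acid induced 2, encodes a nuclear protein. Rai2 values ran from 6.54 to 6.95 in LAMS, with a median of 6.69, against 7.42, 7.12, 7.45, 7.65 and 7.03 on the 5 control arrays. The difference of -0.59 ± 0.13 again came without overlap (adjusted p = 0.0761, and 0.0382 with name style).

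Pear1 encodes a receptor of endothelial cells and platelets, named for platelet endothelial aggregation. In LAMS, Pear1 had a lowest value of 6.31, a median of 6.45 and a highest of 6.59, and in control it had 6.76, 6.98, 6.72, 6.77 and 6.92. The LAMS values were tightly grouped and separate from control, with a difference of -0.38 ± 0.08 (adjusted p = 0.0761, and 0.0382 with name style). Tmem150a encodes a membrane protein that takes part in phosphoinositide synthesis at the plasma membrane. Tmem150a lay between 6.60 and 7.10 on the LAMS arrays (median 6.90), and the control arrays had 7.17, 7.41, 7.28, 7.46 and 7.21. These groups did not overlap either, and the difference was -0.44 ± 0.10. Steap4 encodes a metalloreductase that reduces iron and copper and is induced in inflammation. Expression of Steap4 was 6.79 at its lowest, 6.94 at the median and 7.16 at its highest in LAMS, and 7.16, 7.28, 7.50, 7.38 and 7.77 in control. The highest LAMS and the lowest control array were alike, and the difference was -0.46 ± 0.10. Hs3st1 adds the 3-O-sulphate that completes the antithrombin-binding site of heparan sulphate. Hs3st1 values ran from 7.25 to 7.87 in LAMS, with a median of 7.48, against 8.06, 7.57, 8.06, 7.94 and 8.19 on the 5 control arrays. Control replicate 2 lay among the LAMS arrays, and the difference was -0.45 ± 0.10.

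Vstm4 encodes a membrane protein of the immunoglobulin superfamily. In LAMS, Vstm4 had a lowest value of 7.00, a median of 7.21 and a highest of 7.50, and in control it had 7.63, 7.40, 7.87, 7.82 and 7.65. One LAMS array exceeded control replicate 2, and the difference was -0.48 ± 0.11. Nabp2 encodes a single-stranded DNA binding protein of the DNA damage response. Nabp2 lay between 8.31 and 8.85 on the LAMS arrays (median 8.52), and the control arrays had 8.87, 8.70, 9.12, 9.15 and 9.10. Control replicate 2 alone lay within the LAMS range. The difference was -0.44 ± 0.10, with -0.56 among animal numbers over 30 and -0.28 among numbers up to 30. Tesk1 encodes a kinase that acts on the actin-severing factor cofilin. Expression of Tesk1 was 7.95 at its lowest, 8.17 at the median and 8.35 at its highest in LAMS, and 8.22, 8.40, 8.69, 8.64 and 8.81 in control. Control replicate 1 alone lay within the LAMS range. The difference was -0.39 ± 0.09, with -0.51 among numbers over 30 and -0.25 among numbers up to 30. Bnc2, a zinc finger protein of fibroblasts and other mesenchymal cells, had values of 5.88 to 6.25 with a median of 6.02 in LAMS and 6.43, 6.48, 6.43, 6.80 and 6.21 in control. It differed by -0.44 ± 0.10, with an adjusted p of 0.0807, and 0.0496 with name style as a term.

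**Figure D2:**
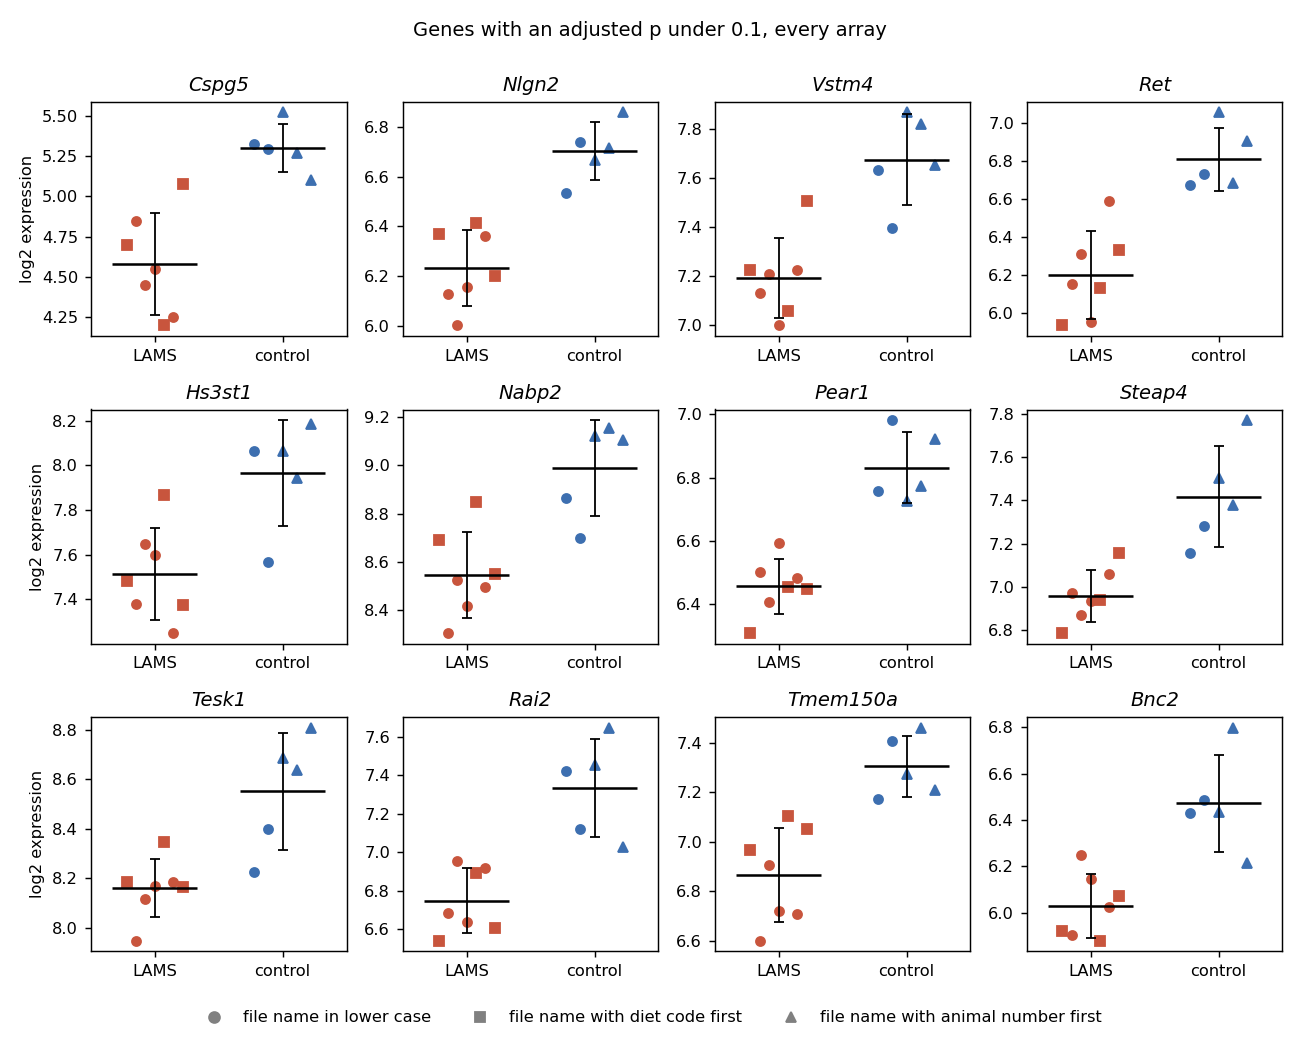
Log2 expression of the 12 genes with an adjusted p under 0.1 on every array, LAMS left and control right; symbols give the style of the array file's name, and lines give the mean ± SD of 7 LAMS and 5 control arrays. For Cspg5, Nlgn2, Ret, Pear1, Rai2 and Tmem150a no LAMS point reaches the lowest control point.

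The 12 genes lay between -0.72 and -0.38 in LAMS against control, at 0.607 to 0.771 of the control level. The 12 kept their sign among animal numbers over 30 (-0.79 to -0.33) and among numbers up to 30 (-0.66 to -0.25). They also did within the lower-case name style (-0.79 to -0.21) and without the 4 lymphoid-rich arrays (-0.80 to -0.27). The 12 were chosen by their p in these same arrays, so a kept sign in a part of the arrays is no independent support. The adjusted threshold was passed by only 6 of the 12 with name style as a term. Adjusted p among the 12 reached 0.083 in that fit (limma). With each array centred on the median of its tested genes, the 12 lay between -0.66 and -0.31, with adjusted p of 0.654 to 0.692 (limma). Leaving out control replicate 3 raised the lowest adjusted p of all genes to 0.303, and leaving out control replicate 4 raised it to 0.219. The next genes by p were Smoc1 (-0.56 ± 0.14), a matrix protein that binds calcium, Bcat1 (-0.51 ± 0.13), the cytosolic enzyme that starts the breakdown of branched-chain amino acids, and Tead2 (-0.37 ± 0.09), a DNA-binding partner of the Hippo pathway factor Yap. All 3 had no overlap between the groups and adjusted p of 0.148, 0.15 and 0.164.

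Genes of the enteric nervous system lay lower in LAMS as a group. Of 30 genes listed for enteric neurons, 24 were tested, 4 were under the low-signal filter and 2 had no probe set of their own. In LAMS 23 of the 24 lay lower, 12 of them with an unadjusted p under 0.05, and none lay higher at that p. Every list count here and below is to be read beside the shares of all genes. These were 60.2% lower by sign, 7.88% lower at that p and 0.757% higher at that p. The median difference of the 24 genes was -0.41, against -0.04 over all genes, and -0.35 with centred arrays. The mean level of the 24 genes ran from 5.63 to 6.15 in LAMS, with a median of 6.07, and from 6.21 to 6.47 in control. No LAMS array thus reached a control array. Without the 4 lymphoid-rich arrays the median difference was -0.28. No member of this or any other list passed after adjustment over all genes.

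Npy encodes neuropeptide Y, a transmitter of some enteric and of sympathetic nerve cells. Npy values ran from 5.37 to 6.21 in LAMS, with a median of 5.72, against 6.66, 6.11, 6.32, 7.14 and 6.08 on the 5 control arrays. Only LAMS replicate 1 came up to control values, and the difference was -0.74 ± 0.22 (adjusted p = 0.243). Chrna3 encodes a subunit of the nicotinic acetylcholine receptor that carries fast transmission between enteric neurons. In LAMS, Chrna3 had a lowest value of 6.18, a median of 6.67 and a highest of 6.88, and in control it had 7.09, 7.16, 7.27, 7.41 and 7.06. The groups did not overlap, with a difference of -0.59 ± 0.17 (adjusted p = 0.243). The general neuronal marker Uchl1, a ubiquitin hydrolase, had a difference of -0.58 ± 0.20. Nefl, the light neurofilament subunit, averaged 6.26 ± 0.29 in LAMS and 6.92 ± 0.29 in control.

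Genes of the axon and its growth were lower throughout. All 18 tested of 23 listed lay lower in LAMS, 9 of them at an unadjusted p under 0.05, with a median of -0.32. Their mean level ran from 5.98 to 6.30 in LAMS and from 6.45 to 6.59 in control, without overlap. The list shares 7 of its 18 genes with that of enteric neurons, so both levels rest in part on the same genes. The other 11 all lay lower, with a median of -0.21, and their mean level was 6.31 to 6.54 in LAMS and 6.59 to 6.75 in control. Gap43 encodes the growth cone protein that marks growing and regenerating axons. Gap43 lay between 5.86 and 6.39 on the LAMS arrays (median 6.34), and the control arrays had 6.79, 6.65, 6.91, 6.59 and 6.75. LAMS replicate 4 was the lowest array, and the difference of -0.47 ± 0.14 came without overlap. Prph encodes peripherin, the intermediate filament of peripheral nerve cells. Expression of Prph was 5.62 at its lowest, 6.13 at the median and 6.49 at its highest in LAMS, and 6.86, 6.50, 7.14, 6.60 and 6.53 in control. The 2 groups were separate, and the difference was -0.62 ± 0.22. Map1b, a microtubule-associated protein of growing axons, had values of 6.22 to 6.94 with a median of 6.59 in LAMS and 7.35, 7.15, 7.29, 7.22 and 6.77 in control. Its difference was -0.55 ± 0.16. Kif1a, the kinesin that carries synaptic vesicle precursors, had a difference of -0.44 ± 0.13, and of -0.60 with name style as a term (adjusted p = 0.0496).

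Of 21 synaptic genes tested of 27 listed, 16 lay lower in LAMS, 9 with an unadjusted p under 0.05, and 1 lay higher at that p. Their median was -0.23. After Nlgn2 the smallest p belonged to Rab3c (-0.49 ± 0.16), a GTPase of synaptic vesicles, Syp (-0.42 ± 0.14), the vesicle protein synaptophysin, Syn2 (-0.37 ± 0.13), a synapsin that tethers vesicles, and Dlg4 (-0.20 ± 0.08), a scaffold protein of the postsynaptic density. Of 14 neuronal channel and receptor genes tested, 11 lay lower (78.6%), 2 at that p (14.3%), with a median of -0.10. Over all genes the shares were 60.2% and 7.88%.

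The neurotrophic and neural crest list placed Ret beside its partners. Of 20 genes tested of 26 listed, 16 lay lower in LAMS, 4 at an unadjusted p under 0.05 and none higher, with a median of -0.18. Their mean level was 6.33 to 6.46 in LAMS and 6.54 to 6.61 in control. Gfra1 is the co-receptor that presents Gdnf to Ret. Gfra1 values ran from 5.92 to 6.49 in LAMS, with a median of 6.30, against 6.70, 6.71, 6.57, 6.78 and 6.66 on the 5 control arrays. These values did not overlap, and the difference was -0.43 ± 0.11 (adjusted p = 0.225). Gfra2, the co-receptor for neurturin, had a difference of -0.29 ± 0.10, and Ntn1, the axon guidance cue netrin 1, one of -0.47 ± 0.18. The receptor for neurotrophin 3, Ntrk3, lay at -0.20 ± 0.10.

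Glial genes were less uniform. Of 14 tested of 20 listed, 10 lay lower (71.4%, beside 60.2% of all genes). At an unadjusted p under 0.05, 4 of the 14 lay lower (28.6%, beside 7.88%). The median was -0.15 and became -0.04 without the lymphoid-rich arrays. Cspg5 led the glial list. L1cam encodes an adhesion protein of axons and glia. In LAMS, L1cam had a lowest value of 5.43, a median of 6.00 and a highest of 6.11, and in control it had 6.63, 6.40, 6.24, 6.20 and 6.14. No LAMS array reached a control array, the difference was -0.46 ± 0.14, and with name style as a term it was -0.58 (adjusted p = 0.0441). Among animal numbers over 30 it was -0.27 and among numbers up to 30 it was -0.80. Gpm6b, a myelin-type membrane protein, lay at -0.22 ± 0.08, and Lgi4, which glia secrete for myelination, at -0.30 ± 0.14.

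**Figure D3:**
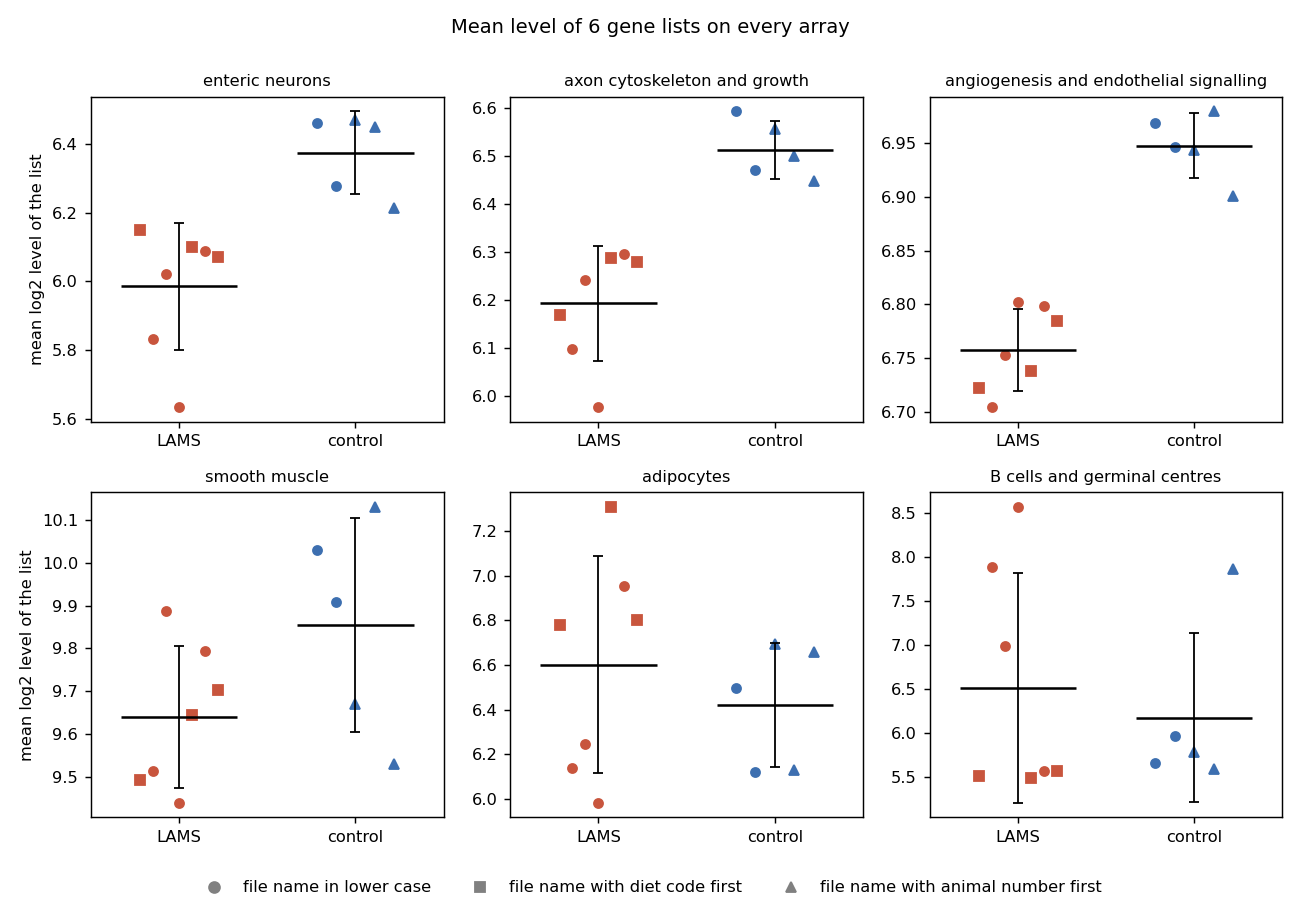
Mean log2 level of 6 gene lists on every array, LAMS left and control right, with the mean ± SD of 7 LAMS and 5 control arrays; symbols give the style of the array file's name. The enteric neuron, axon and angiogenesis levels separate the groups, the smooth muscle and adipocyte levels overlap, and the B cell level is high on 3 LAMS arrays and 1 control array.

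Proteoglycans and the enzymes that sulphate them include Cspg5 and Hs3st1. Of 25 genes tested of 31 listed, 23 lay lower in LAMS (92%, beside 60.2% of all genes), with a median of -0.20. At an unadjusted p under 0.05, 7 lay lower (28%, beside 7.88%). Sdc3 encodes syndecan 3, a heparan sulphate proteoglycan of nerve tissue. Sdc3 lay between 7.75 and 8.34 on the LAMS arrays (median 8.05), and the control arrays had 8.34, 8.70, 8.85, 8.61 and 8.45. The groups did not overlap, and the difference was -0.54 ± 0.15 (adjusted p = 0.243). Chst15, which adds a further sulphate to chondroitin sulphate chains, lay at -0.39 ± 0.13, and Hs6st1, a 6-O-sulphotransferase for heparan sulphate, at -0.33 ± 0.12.

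Vessel genes also lay lower in LAMS. In the list of angiogenesis and endothelial signalling, which holds Pear1, 23 of 26 genes tested lay lower, 9 at an unadjusted p under 0.05 and none higher, with a median of -0.20. Their mean level was 6.70 to 6.80 in LAMS and 6.90 to 6.98 in control. Of 23 endothelial markers tested, 20 lay lower and 5 had that p, with a median of -0.16. Several endothelial markers, Eng among them, stand in both lists, so both counts rest in part on the same genes. Eng encodes endoglin, a co-receptor for Tgf-beta family ligands on endothelium. Expression of Eng was 8.19 at its lowest, 8.48 at the median and 8.57 at its highest in LAMS, and 8.73, 8.80, 8.70, 8.67 and 8.79 in control. All LAMS arrays lay below the lowest control array, with a difference of -0.33 ± 0.10, and with name style as a term it was -0.46 (adjusted p = 0.0496). Plvap forms the diaphragms of fenestrated capillaries. Plvap values ran from 8.23 to 8.56 in LAMS, with a median of 8.28, against 8.47, 8.43, 8.87, 8.59 and 9.01 on the 5 control arrays. Control replicates 1 and 2 lay within the LAMS range, and the difference was -0.34 ± 0.11. Adgrl4, an adhesion receptor of endothelium, lay at -0.45 ± 0.13, Bmp6, a ligand of the Bmp family, at -0.42 ± 0.15 and Vegfc, the growth factor of lymphatic vessels, at -0.25 ± 0.10.

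Muscle and stromal genes leaned the same way, but by amounts that differed between animal number ranges. Of 22 smooth muscle genes tested, 21 lay lower in LAMS (95.5%, beside 60.2% of all genes). At an unadjusted p under 0.05, 3 lay lower (13.6%, beside 7.88%). The median of the 22 was -0.22, with -0.07 among animal numbers over 30 and -0.50 among numbers up to 30. Hspb7 encodes a small heat shock protein of muscle. In LAMS, Hspb7 had a lowest value of 6.11, a median of 6.58 and a highest of 6.76, and in control it had 6.95, 6.83, 6.96, 7.84 and 6.71. Control replicate 4 stood far above the others, and the difference was -0.58 ± 0.20. Lmod1 encodes leiomodin 1, which builds actin filaments in smooth muscle. Lmod1 lay between 8.36 and 8.66 on the LAMS arrays (median 8.53), and the control arrays had 9.22, 9.10, 8.82, 9.07 and 8.61. Only control replicate 5 fell within the LAMS range, and the difference was -0.44 ± 0.19. Myocd, the co-activator that drives smooth muscle genes, lay at -0.33 ± 0.15.

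All 7 pericyte genes and all 7 genes of interstitial cells of Cajal, the pacemakers of gut muscle, lay lower, with medians of -0.27 and -0.29. For pericytes the median was -0.09 among numbers over 30 and -0.52 among numbers up to 30, and for the pacemaker cells it was -0.15 and -0.46. Kcnn3 encodes a small-conductance calcium-activated potassium channel that these pacemaker cells and fibroblast-like cells of the muscle carry. Expression of Kcnn3 was 7.13 at its lowest, 7.43 at the median and 7.95 at its highest in LAMS, and 8.38, 8.35, 7.67, 8.09 and 7.50 in control. The groups overlapped, and the difference was -0.50 ± 0.20. It was -0.87 with name style as a term (adjusted p = 0.0382), -0.15 among numbers over 30 and -1.12 among numbers up to 30.

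The serum response factor Srf, which binds CArG boxes and drives muscle genes with Myocd, averaged 8.66 ± 0.11 in LAMS and 9.07 ± 0.21 in control, a difference of -0.41 ± 0.11 (adjusted p = 0.228). Srf falls outside the rule by which the other genes were chosen and was looked up after its values were seen. Among promoter windows of RefSeq on build GRCr8 (250 bases before to 50 after a gene's start), 1.64% of all 33469 windows and 1.26% of the 9427 windows of tested genes held a CArG box on either strand. Among 18 windows of 17 smooth muscle genes tested, 1 did, that of Fhl1, a LIM protein of muscle with a difference of 0.15 ± 0.20. The Srf window itself held 2. Only exact matches inside these windows were counted, so inexact or more distant boxes were not looked for. The 250 bases before the start of each gene are shown with the boxes in capitals because these are the windows named here that hold the motif. Fhl1 was the only 1 of the 22 smooth muscle genes tested that did not lie lower, and a match is a description of letters only. The Srf stretch lies at chr9:21923826-21924075 and the Fhl1 stretch at chrX:139638246-139638495, both on the plus strand.
Srf: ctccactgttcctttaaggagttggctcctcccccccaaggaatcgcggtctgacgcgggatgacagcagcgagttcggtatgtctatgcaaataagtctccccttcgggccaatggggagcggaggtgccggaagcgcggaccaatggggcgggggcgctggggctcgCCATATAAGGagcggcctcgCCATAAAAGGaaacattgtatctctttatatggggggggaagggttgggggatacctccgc
Fhl1: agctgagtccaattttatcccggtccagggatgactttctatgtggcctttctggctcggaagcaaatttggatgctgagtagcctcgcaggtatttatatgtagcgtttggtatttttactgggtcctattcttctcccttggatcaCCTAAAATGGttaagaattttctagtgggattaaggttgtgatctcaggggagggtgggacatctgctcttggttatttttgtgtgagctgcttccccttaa

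Of 22 fibroblast and matrix genes tested, 17 lay lower in LAMS (77.3%, beside 60.2% of all genes), with a median of -0.13. At an unadjusted p under 0.05, 4 lay lower (18.2%, beside 7.88%). Among animal numbers over 30 the median was 0.04, so the sign of this list depended on the 2 control and 2 LAMS animals with low numbers, where it was -0.50. Lox encodes lysyl oxidase, which cross-links collagen and elastin. Lox values ran from 5.72 to 6.09 in LAMS, with a median of 5.89, against 6.55, 6.23, 6.46, 6.31 and 6.02 on the 5 control arrays. Control replicate 5 alone lay within the LAMS range. The difference was -0.41 ± 0.11 (adjusted p = 0.183), with -0.33 among numbers over 30 and -0.57 among numbers up to 30. Its relative Loxl1 lay at -0.36 ± 0.12, Fbln1, the matrix protein fibulin 1, at -0.39 ± 0.16 and the protease inhibitor Timp2 at -0.30 ± 0.14.

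Hedgehog, Notch and Wnt pathway genes, through which epithelium and stroma instruct each other, numbered 24 tested. Of the 24, 22 lay lower (91.7%, beside 60.2% of all genes), and the median was -0.19. At an unadjusted p under 0.05, 7 lay lower (29.2%, beside 7.88%). Gli1 is the target gene by which Hedgehog activity in stromal cells is usually read. In LAMS, Gli1 had a lowest value of 5.37, a median of 5.52 and a highest of 5.65, and in control it had 5.87, 6.20, 5.84, 5.74 and 5.63. Control replicate 5 alone lay within the LAMS range. Its difference was -0.35 ± 0.12, and -0.55 with name style as a term (adjusted p = 0.0382). Gli3, another factor of the pathway, lay at -0.49 ± 0.18 (-0.79 with name style, adjusted p = 0.0443). Porcn, which lipidates Wnt proteins for secretion, lay at -0.33 ± 0.11, Sfrp1, a secreted Wnt antagonist, at -0.41 ± 0.17 and Rspo3, which amplifies Wnt signals at the crypt base, at -0.42 ± 0.18.

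In the Tgf-beta and Bmp list 23 of 27 genes tested lay lower (85.2%, beside 60.2% of all genes), with a median of -0.13. At an unadjusted p under 0.05, 7 lay lower (25.9%, beside 7.88%). Tgfbr3 encodes betaglycan, the co-receptor for Tgf-beta. Tgfbr3 lay between 7.55 and 8.42 on the LAMS arrays (median 7.99), and the control arrays had 8.42, 8.71, 8.25, 8.33 and 8.20. LAMS replicate 6 alone entered the control range. The difference was -0.45 ± 0.15, and -0.66 with name style as a term (adjusted p = 0.0437). Smad3, a signal transducer of the pathway, lay at -0.30 ± 0.11, Bmp7 at -0.31 ± 0.14 and Tgfb3 at -0.37 ± 0.17.

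Centring each array on the median of its tested genes added 0.06 to every difference, which matters most for medians of that size. The centred medians were -0.06 for the Tgf-beta and Bmp list, -0.08 for glia, -0.10 for endothelium, -0.07 for fibroblasts, -0.03 for goblet cells, -0.03 for neuronal channels and -0.07 for macrophages and dendritic cells. They were -0.11 for crypt genes and -0.12 for the enteroendocrine and neurotrophic lists, and -0.13 for Hedgehog, Notch and Wnt genes. The T and NK cell median became -0.0032. The interferon and fatty acid synthesis lists turned to 0.02 and 0.05, and the lists of colonocytes, inflammatory genes, cholesterol and fatty acid oxidation lay at 0.08, 0.07, 0.16 and 0.13.

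**Figure D4:**
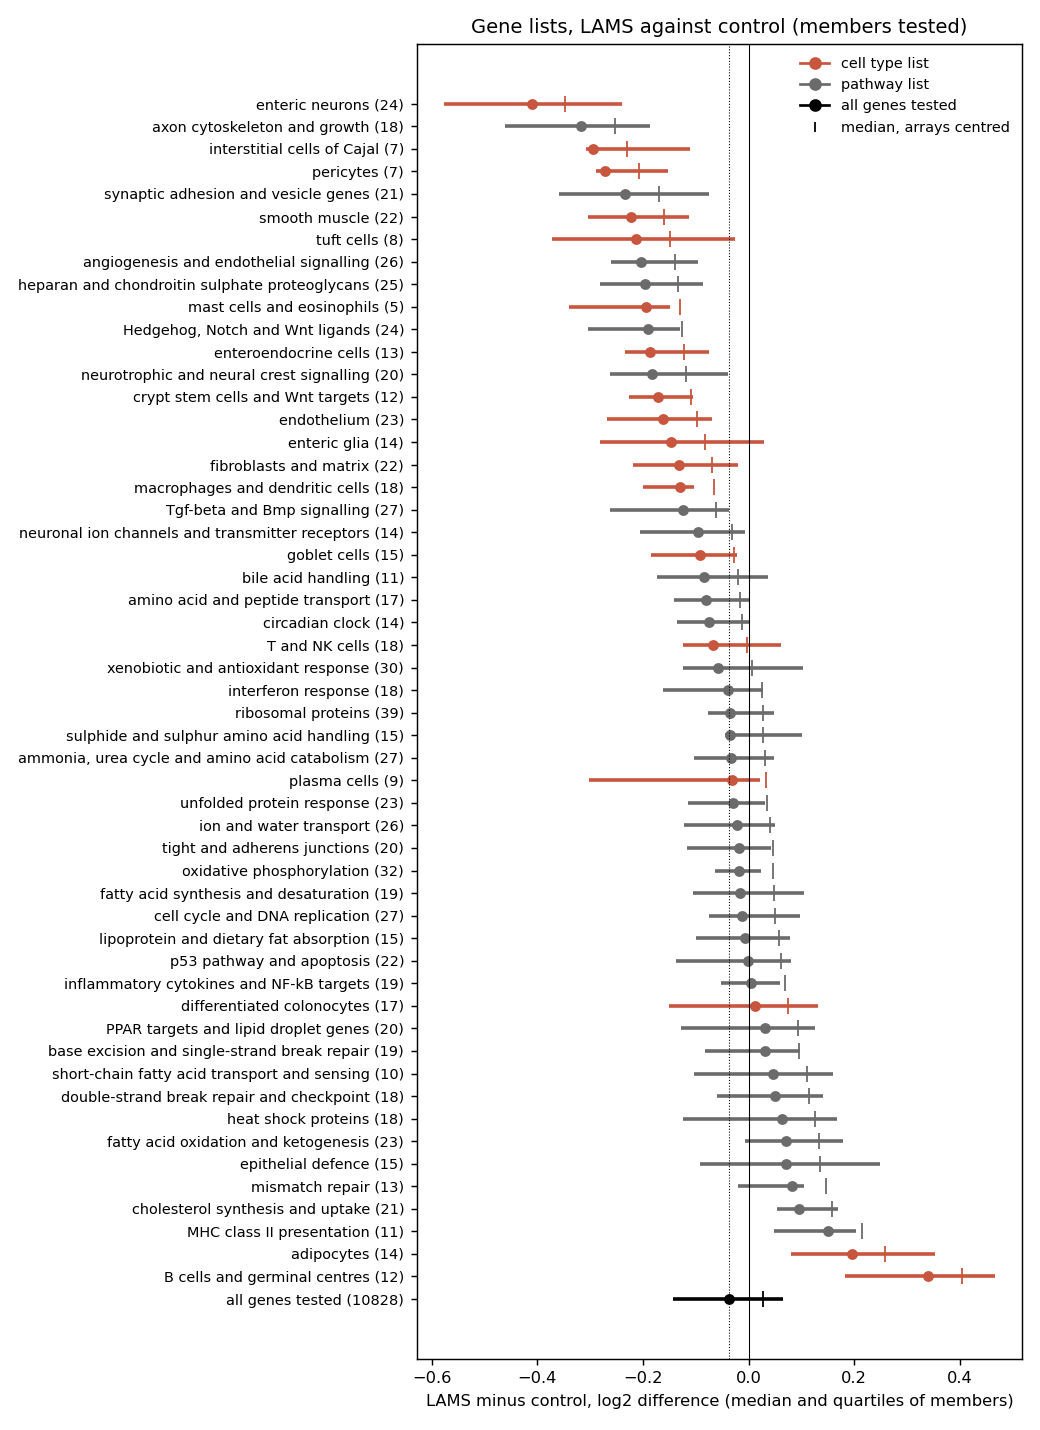
Median LAMS minus control difference of each gene list with at least 5 members tested, other than that of other organs (points), with the quartiles of its members (bars) and its median after centring each array (ticks); the number of members tested stands in brackets and the dotted line marks the median of all genes. Neural, muscle and vessel lists lie at the lower end, from -0.41 for enteric neurons, and B cell and adipocyte lists at the upper end, at 0.34 and 0.20.

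Adipocyte genes leaned the other way. Of 14 tested, 3 lay lower in LAMS, none reached an unadjusted p of 0.05, and the median was 0.20. Their mean level was 5.98 to 7.31 in LAMS and 6.12 to 6.69 in control, so that the spread within LAMS was wider than the difference. The median was 0.63 without the lymphoid-rich arrays. Lep, the hormone leptin, averaged 5.22 ± 0.60 in LAMS and 4.70 ± 0.37 in control, and Slc2a4, the insulin-responsive glucose transporter of fat and muscle, 6.81 ± 0.20 and 7.10 ± 0.25.

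The epithelial lists differed among themselves. Of 17 genes of differentiated colonocytes 8 lay lower (47.1%), 1 of them at an unadjusted p under 0.05 (5.88%), with a median of 0.01. Of 15 goblet cell genes 11 lay lower (73.3%), 1 at that p (6.67%), with a median of -0.09. Over all genes the shares were 60.2% and 7.88%. Crypt stem cell genes and Wnt targets had a median of -0.17 with 10 of 12 lower and none at that p. Guca2b encodes uroguanylin, the peptide that opens chloride secretion through guanylate cyclase C. Expression of Guca2b was 7.62 at its lowest, 7.83 at the median and 9.05 at its highest in LAMS, and 8.50, 8.88, 8.59, 8.31 and 8.70 in control. LAMS replicate 5 stood above all control arrays, and the other 6 LAMS arrays lay below all of them. The difference was -0.59 ± 0.24 (adjusted p = 0.46), and -0.76 without that array.

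Resistin-like genes had the largest differences in size among genes with an unadjusted p under 0.05. Retnlb encodes a goblet cell protein with antibacterial action that rises with bacterial contact and with type 2 immunity. Retnlb values ran from 6.02 to 8.83 in LAMS, with a median of 7.65, against 6.54, 9.28, 10.20, 9.81 and 10.05 on the 5 control arrays. Control replicate 1 stood far below the other control arrays, and LAMS values spanned almost the whole distance between. The difference was -1.79 ± 0.70 with an adjusted p of 0.41, and -2.45 without control replicate 1. Retnla, its neighbour in the family, averaged 6.55 ± 0.80 in LAMS and 8.45 ± 1.35 in control, a difference of -1.90 ± 0.69. Whether the probe sets of the 2 genes respond to each other's RNA was not tested.

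Tuft cell genes counted 8, of which 6 lay lower (75%, beside 60.2% of all genes), with a median of -0.21. At an unadjusted p under 0.05, 4 lay lower (50%, beside 7.88%). Alox5ap encodes the activating protein of 5-lipoxygenase in leukotriene synthesis, in tuft cells as well as in myeloid cells. In LAMS, Alox5ap had a lowest value of 6.56, a median of 6.75 and a highest of 7.10, and in control it had 7.07, 7.01, 7.87, 7.45 and 7.17. The groups overlapped at their edges, and the difference was -0.52 ± 0.13 (adjusted p = 0.181). Dclk1, a kinase that marks tuft cells and also neurons, had values of 6.53 to 7.18 with a median of 6.67 in LAMS and 7.30, 7.21, 7.13, 7.01 and 6.85 in control. Its difference was -0.36 ± 0.12. Ptgs1, cyclooxygenase 1, lay at -0.36 ± 0.14 and the lipoxygenase gene Alox5 itself at -0.42 ± 0.17. Of 13 enteroendocrine genes 11 lay lower, with a median of -0.19. Chga encodes chromogranin A of hormone granules. Chga lay between 5.87 and 6.42 on the LAMS arrays (median 6.29), and the control arrays had 6.66, 6.74, 6.83, 6.34 and 6.35. Control replicates 4 and 5 lay within the LAMS range. The difference was -0.37 ± 0.12, and -0.52 with name style as a term (adjusted p = 0.0429).

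Immune lists varied with the 4 lymphoid-rich arrays, LAMS replicates 2, 3 and 4 and control replicate 5. The 12 B cell genes had a median of 0.34, which ran from -0.02 to 0.79 when 1 array was left out and was -0.19 without the 4 arrays, with no gene at an unadjusted p under 0.05. The 18 T and NK cell genes had a median of -0.07, which ran from -0.30 to 0.28 when 1 array was left out and was -0.32 without the 4 arrays. The 18 genes of macrophages and dendritic cells had one of -0.13, which ran from -0.16 to -0.09. Neither list had a gene at that p. Of 9 plasma cell genes 3 were lower at that p (33.3%, beside 7.88% of all genes). Jchain encodes the chain that joins IgA for transport into the lumen. Expression of Jchain was 7.28 at its lowest, 8.35 at the median and 9.29 at its highest in LAMS, and 8.85, 9.52, 9.39, 8.26 and 9.39 in control. The groups overlapped widely, and the difference was -0.72 ± 0.30 (adjusted p = 0.479). Prdm1, the regulator of plasma cell formation, lay at -0.30 ± 0.13. Of 19 inflammatory genes 2 were lower at that p (10.5%, beside 7.88% of all genes), Steap4 and Rela (-0.32 ± 0.14), a subunit of NF-kB. The median of the 19 was 0.01 (-0.03 to 0.10 with 1 array left out). Interferon response genes had a median of -0.04 (-0.14 to 0.14) and none at that p. The transcription factor Gata2, of mast cells and endothelium, lay at -0.34 ± 0.11.

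Metabolic lists lay close to the median of all genes, with single genes apart. The 2 desaturases that make long polyunsaturated fatty acids both lay lower. Fads2 encodes the delta-6 desaturase. Fads2 values ran from 8.58 to 9.17 in LAMS, with a median of 8.85, against 9.45, 9.01, 9.11, 9.53 and 9.25 on the 5 control arrays. Control replicates 2 and 3 lay within the LAMS range and the difference was -0.43 ± 0.12 (adjusted p = 0.243). Fads1 encodes the delta-5 desaturase. In LAMS, Fads1 had a lowest value of 6.66, a median of 7.07 and a highest of 7.36, and in control it had 7.75, 7.29, 7.46, 7.43 and 7.44. Control replicate 2 alone lay within the LAMS range. The difference was -0.45 ± 0.14, and -0.64 with name style as a term (adjusted p = 0.0382). The other 17 genes of fatty acid synthesis and desaturation held none at an unadjusted p under 0.05, and the median of the 19 was -0.02. The share lower at that p was 10.5% of the 19, beside 7.88% of all genes. Ass1 encodes argininosuccinate synthase, which remakes arginine from citrulline. Ass1 lay between 6.42 and 6.94 on the LAMS arrays (median 6.66), and the control arrays had 7.20, 6.90, 7.47, 7.39 and 6.91. LAMS replicate 6 alone exceeded the lowest control arrays, and the difference was -0.52 ± 0.14 (adjusted p = 0.19). Ass1 was the only 1 of 27 genes of ammonia and amino acid handling at that p (3.70%, beside 7.88% of all genes).

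Pygl encodes liver-type glycogen phosphorylase. Expression of Pygl was 6.74 at its lowest, 7.11 at the median and 7.86 at its highest in LAMS, and 8.32, 8.17, 8.28, 8.28 and 8.33 in control. Control values were close together and LAMS values ran widely. The difference of -1.01 ± 0.27 was the third in size among genes with an unadjusted p under 0.05, after the 2 resistin-like genes (adjusted p = 0.216). Slc51a, a subunit of the basolateral bile acid exporter, lay at -0.46 ± 0.20. It was the only 1 of 11 bile acid genes at that p (9.09%, beside 7.88% of all genes). Of 17 genes of amino acid and peptide transport 2 were lower at that p (11.8%, beside 7.88% of all genes). They were Slc7a8 (-0.33 ± 0.12) and Slc16a10 (-0.45 ± 0.17). Of 26 genes of ion and water transport 2 were lower (7.69%, beside 7.88% of all genes), Aqp1 (-0.48 ± 0.21), a water channel of vessels, and Kcnma1 (-0.34 ± 0.16), the large calcium-activated potassium channel of muscle and epithelium. No gene for short-chain fatty acid transport, sulphide handling, dietary fat absorption, oxidative phosphorylation, the ribosome or the xenobiotic response reached that p.

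Cholesterol and fatty acid oxidation genes leaned upward by little. Of 21 cholesterol genes 5 lay lower, and the median was 0.09. Lss encodes lanosterol synthase. Lss values ran from 7.46 to 8.13 in LAMS, with a median of 7.88, against 7.80, 7.80, 7.36, 7.38 and 6.87 on the 5 control arrays. The groups overlapped through control replicates 1 and 2, and the difference was 0.42 ± 0.15 (adjusted p = 0.369). It was 0.73 among numbers over 30 and -0.13 among numbers up to 30. Of 23 genes of fatty acid oxidation and ketogenesis 7 lay lower, and the median was 0.07. Decr1 encodes the mitochondrial reductase needed for oxidation of unsaturated fatty acids. In LAMS, Decr1 had a lowest value of 6.94, a median of 7.46 and a highest of 7.64, and in control it had 7.07, 7.04, 6.87, 7.00 and 7.06. LAMS replicate 4 alone lay within the control range, and the difference was 0.39 ± 0.17 (adjusted p = 0.483).

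Over all genes 7.88% were lower and 0.757% higher at an unadjusted p under 0.05. Of 18 heat shock genes 1 was lower and 1 higher at that p (5.56% each). So it was for 23 genes of the unfolded protein response (4.35% each). The lower ones were Bag3 (-0.30 ± 0.14), a co-chaperone of Hsp70, and Herpud1 (-0.23 ± 0.11), a protein of endoplasmic reticulum stress, and the higher ones were Hsp90aa1 and Hspa5. Hsp90aa1 encodes the inducible cytosolic Hsp90. Hsp90aa1 lay between 8.97 and 10.27 on the LAMS arrays (median 9.66), and the control arrays had 9.53, 9.41, 8.63, 9.16 and 9.38. The groups overlapped, with a difference of 0.48 ± 0.21. Hspa5 encodes BiP, the chaperone of the endoplasmic reticulum. Expression of Hspa5 was 10.16 at its lowest, 10.42 at the median and 11.42 at its highest in LAMS, and 10.17, 10.38, 9.82, 9.78 and 10.48 in control. They overlapped again, with a difference of 0.47 ± 0.21. The 2 genes lay at 0.72 and 0.69 among animal numbers over 30 and at 0.05 and 0.01 among numbers up to 30. Ppid, a cyclophilin that works with Hsp90, had values of 8.56 to 9.09 with a median of 8.86 in LAMS and 8.52, 8.63, 8.17, 8.37 and 8.42 in control. Its difference was 0.42 ± 0.14 (adjusted p = 0.309). Repair genes at an unadjusted p under 0.05 were Nabp2, the histone H2ax (-0.33 ± 0.15) and the ligase Lig1 (-0.26 ± 0.11), all lower. The shares were 7.69% of 13 mismatch repair, 0% of 19 base excision and 11.1% of 18 double-strand break repair genes tested. Over all genes the share lower at that p was 7.88%. Of 14 clock genes Nfil3 (-0.34 ± 0.14) and Nr1d1 (-0.32 ± 0.15) were lower at that p (14.3%). Of 22 genes of the p53 pathway and apoptosis Bcl2l1 (-0.26 ± 0.11) and Bad (-0.20 ± 0.09) were (9.09%).

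The 82 genes higher in LAMS at an unadjusted p under 0.05 were fewer than the 271 that unchanged genes would give in each direction. That count depended on the fit. It was 325 with centred arrays, 298 with name style as a term and 343 with name style and number range together. With array weights it was 480, with the array spread as a covariate 491 and among animal numbers over 30 it was 305. In the other fits it stayed under 271. The count thus does not decide whether there was an upward response, and the genes below are described singly. The 15 with the smallest p included Ppid and Lss, described above. Vax1, a homeobox factor of the developing forebrain and eye, had the smallest p of all. Vax1 values ran from 6.15 to 6.60 in LAMS, with a median of 6.29, against 5.82, 6.03, 6.06, 6.09 and 5.81 on the 5 control arrays. No LAMS value fell into the control range, and the difference was 0.36 ± 0.11 (adjusted p = 0.266). Or7c19 is named as an olfactory receptor. In LAMS, Or7c19 had a lowest value of 4.74, a median of 5.06 and a highest of 5.12, and in control it had 4.22, 4.73, 4.28, 4.59 and 4.45. All LAMS values lay above all control values, by 0.51 ± 0.17 (adjusted p = 0.28). Sall3, a zinc finger factor of development, had values of 5.11 to 5.56 with a median of 5.34 in LAMS and 4.85, 4.90, 4.87, 5.05 and 5.07 in control. It too showed no overlap, with 0.37 ± 0.13 (adjusted p = 0.323). The control mean of Or7c19, 4.46 ± 0.21, lay under the filter floor of 4.79.

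Barhl2, a homeobox factor of neural development, averaged 5.54 ± 0.37 in LAMS and 5.08 ± 0.23 in control. Krt42, a keratin, averaged 6.17 ± 0.20 and 5.80 ± 0.08. Mbl2, a liver lectin, averaged 5.43 ± 0.25 and 5.04 ± 0.22. Each of these overlapped between the groups. Nccrp1, a protein of stratified epithelium, averaged 5.42 ± 0.28 in LAMS and 5.07 ± 0.14 in control. Otop3, a proton channel, averaged 5.35 ± 0.16 and 5.04 ± 0.10. Gja3, a lens connexin, averaged 5.11 ± 0.21 and 4.81 ± 0.11. Their adjusted p lay between 0.266 and 0.312. Abhd5, a co-activator of fat breakdown, lay at 0.27 ± 0.09, Nupr2 at 0.29 ± 0.10, the nuclear RNA-binding protein Hnrnpc at 0.35 ± 0.12 and Tigd3 at 0.38 ± 0.14. For Nupr2 and Hnrnpc all LAMS values lay above all control values, and Abhd5 and Tigd3 overlapped. The widest upward difference at an unadjusted p under 0.05 was that of Akr1c19, an aldo-keto reductase, at 0.58 ± 0.27 (adjusted p = 0.534).

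The other 4 diets, all tested against the same 5 control arrays, gave counts of their own at an adjusted p under 0.05. HAM called 2367 genes lower (21.9%) and 472 higher (4.36%), HAMSB 52 lower (0.48%) and 39 higher (0.36%), LAW 5 lower (0.0462%) and none higher, and HAW none in either direction. The 12 leading genes of LAMS lay between -0.72 and -0.38 in LAMS. They lay between -0.69 and -0.26 in HAM, between -0.43 and -0.04 in HAMSB, between -0.62 and -0.26 in LAW and between -0.55 and -0.27 in HAW, each against control. All 12 passed the adjusted threshold in HAM and 3 passed in LAW. All 8 HAM arrays had file names with the diet code first and no control array did, so HAM against control also compares name styles. The median B cell level was 8.12 in HAM and 5.79 in control. The interquartile range of the arrays was 2.72 to 3.16 in HAM and 3.25 to 3.38 in control. The part of these differences in the HAM counts was not tested. Because the 5 comparisons share their control arrays, a control array that stands apart moves all of them together. The medians of the enteric neuron list were -0.41 in LAMS, -0.59 in HAM, -0.25 in HAMSB, -0.43 in LAW and -0.36 in HAW, each against control.

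**Figure D5:**
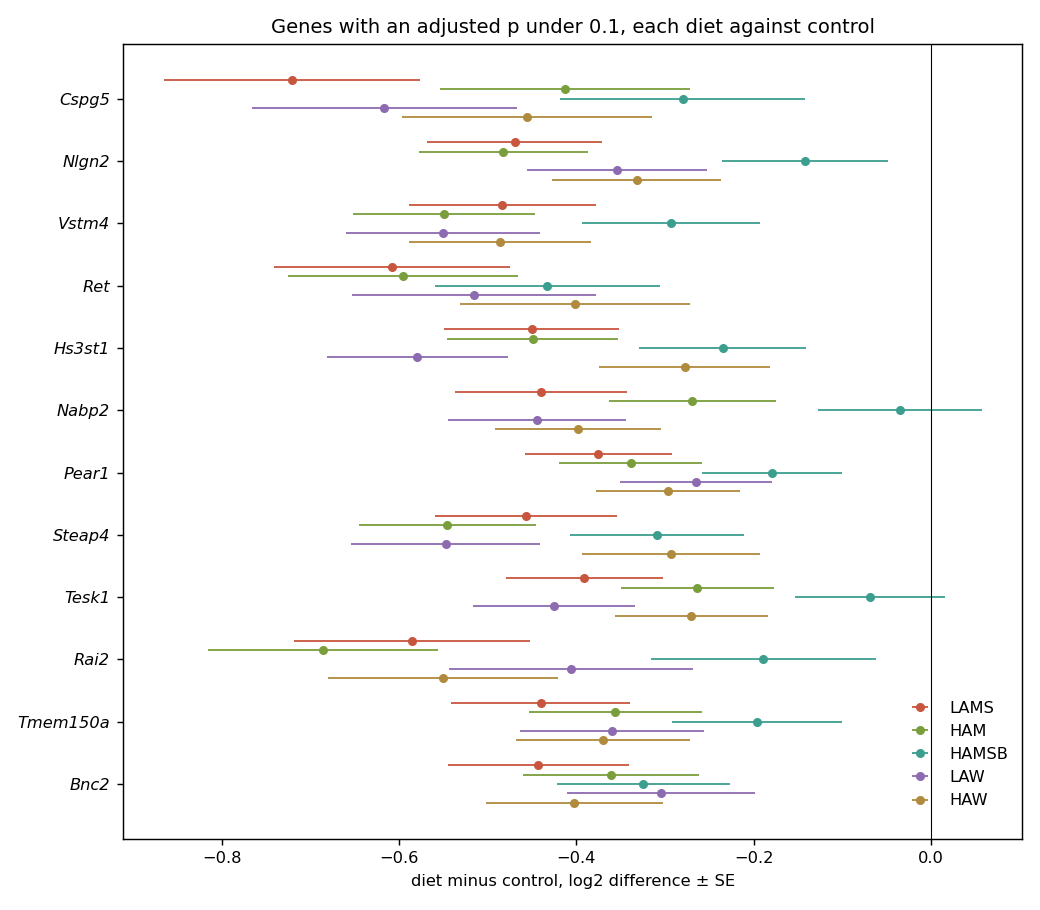
Difference from control on the log2 scale, with its SE, of the 12 genes with an adjusted p under 0.1 in LAMS, for LAMS and for each other diet; all 5 comparisons use the same 5 control arrays. All points lie below 0, with HAMSB nearest to it for most genes.

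Whether LAMS stood apart from the other 4 diets was tested as LAMS minus their mean. The control arrays do not enter this difference, but they enter the variance behind its p-values. No gene passed (0%, limma with Benjamini-Hochberg adjustment, lowest adjusted p 0.253). At an unadjusted p under 0.05, 204 of the 10828 genes lay lower and 523 higher. Unchanged genes would give about 271 in each direction, so this comparison leaned to the higher side. The 12 leading genes lay between -0.28 and -0.01 in that comparison, and the lowest of their adjusted p was 0.71.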

How the data were processed

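RNA from 43 distal colon pieces was measured on Affymetrix arrays, with 100 ng of RNA used for each. The deposited values are log2 values per probe set made with RMA (version not given), per the submitters' processing notes. RMA usually corrects background, makes the distributions of arrays alike and summarises probes. The deposited arrays were not fully alike, with medians of 5.62 to 5.82 and interquartile ranges of 2.68 to 3.40 over the 43 arrays. For 29214 probe sets, 15310 had 1 gene symbol, 323 several and 13581 none in the platform annotation. Each of 14506 symbols was represented by its probe set with the highest mean over the 43 arrays, and 10828 genes whose median reached 4.79, the 25th percentile, were tested. Levels of different genes were not compared.

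Limma 3.58.1 in R 4.3.3 was fitted to all 43 arrays with a mean per diet label (37 residual degrees of freedom), the contrast was LAMS minus control, and p-values were adjusted by Benjamini-Hochberg over the 10828 genes with a threshold of 0.05. The fit was tested on simulated data. One value per array was compared with an exact permutation test. The number of arrays limits the precision. Nothing in the labels states separate litters or cages.

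The comparison and 55 gene lists (1183 distinct genes, 931 tested) were chosen with earlier results of these data known, so lists are described by counts and medians only. Genes named were the 15 with the smallest p in each direction, those past 0.05 with name style as a term, the 10 largest differences in each direction at an unadjusted p under 0.05, and up to 5 members per list. These rules gave 322 genes, of which 213 were left out of the text, 28 of them among the 44 of the name style fit. Promoter sequences are from RefSeq (GRCr8). Alternatives were array centring, filters, priors, weights, blocks, covariates and leaving out each array.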

Additional observations from a re-analysis of the deposited data

Results flagged for a closer look

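Probe sets without a single gene symbol were not part of the comparison of genes. Of 7365 such probe sets above the filter, 7 passed an adjusted p of 0.05 in LAMS against control (limma, Benjamini-Hochberg adjustment over the 7365, lowest adjusted p 0.0326), 4 lower and 3 higher. Probe set 10761350, which the annotation gives 2 symbols, averaged 6.22 ± 0.15 in LAMS and 6.74 ± 0.15 in control (SD, n = 7 and 5, limma), and probe set 10812422 averaged 7.77 ± 0.12 in LAMS and 8.31 ± 0.18 in control. Probe set 10853149 averaged 5.86 ± 0.28 in LAMS and 5.05 ± 0.27 in control, and probe set 10826604 averaged 8.15 ± 0.16 in LAMS and 7.56 ± 0.14 in control. At an unadjusted p under 0.05, 263 of these probe sets lay lower in LAMS and 369 higher. Among the 10828 genes with a symbol that were tested, the counts were 853 lower and 82 higher.

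Single arrays far from the rest of their group were sought for 52 genes, 7 list levels and the array spread, 120 groups in all, and 5 were found, where chance gives about 1 in 20. Gap43 had 5.86 on LAMS replicate 4 against 6.20 to 6.39 on the other LAMS arrays. Guca2b had 9.05 on LAMS replicate 5 against 7.62 to 8.15 on the others. Hspb7 had 7.84 on control replicate 4 against 6.71 to 6.96 on the other control arrays. Retnlb had 6.54 on control replicate 1 against 9.28 to 10.20. The B cell level was 7.87 on control replicate 5 against 5.59 to 5.97 on the other control arrays.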

How the results depend on the processing

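No gene passed the adjusted threshold in the comparison as reported, and the alternatives that called any, all lower in LAMS unless stated, were name style as a term (44), array weights (236, with 10 higher), the lymphoid level as a covariate (8), name style and number range together (8) and the array spread as a covariate (3). Deviations of same-numbered LAMS and control arrays correlated between -0.47 and 0.24, which gave no sign that the numbers pair the samples. Such correlations cannot show that no pairing existed. The fit with the replicate block gave 2. Leaving out 1 array gave 0 to 3: 3 without LAMS replicate 5 or control replicate 2, 2 without LAMS replicate 7 and 1 without control replicate 1. The number higher stayed at 0 when any 1 array was left out. At an unadjusted p under 0.05 the 853 lower genes became 1574 with array weights and 380 with median centring, and 612 to 935 with 1 array left out. The 82 higher genes became 25 with the stricter filter and 157 without a filter. They became 157 with LAMS and control arrays alone, 305 and 153 for animal numbers over and up to 30, 166 within the lower-case style and 186 without the lymphoid-rich arrays, which was chosen after seeing the data. They became 491, 480, 147, 325, 343 and 298 with the spread covariate, array weights, the lymphoid covariate, centring, both blocks and name style, and 50 to 115 with 1 array left out, the lowest without control replicate 3. LAMS minus the mean of the other diets called 1 gene with array weights and 1 with both blocks, and 0 to 0 with 1 array left out. The array spread difference of -0.09 ran from -0.104 to -0.0637 and had an exact p under 0.05 without LAMS replicate 2, 3 or 4 or control replicate 5. Lss was reversed among animal numbers up to 30 (-0.13). The cause of these shifts was not tested. Among the genes named, Cspg5, Or7c19 and Lep each had 1 group mean under the filter floor.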
